A study of Oryza sativa with 9 samples.

Results

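The BGLU genes of rice encode the beta-glucosidases of glycosyl hydrolase family 1. They were followed here through 39 probe sets of 27 genes, taken from the 57194 probe sets that were tested. A probe set was included when the platform annotation gave it 1 gene and the reference gene table listed a BGLU number among the names of that gene. The reference table held 31 BGLU genes, and BGLU2, BGLU4, BGLU21 and BGLU24 had no probe set and are not analysed here. In the table every BGLU number stood as a synonym beside a locus number. The gene called BGLU7 also carries the older name BGLU1 there, and BGLU1 below is the separate gene listed under that number (LOC4324050). Members were taken by name and not by a measured value. The family itself was chosen with earlier results of these data known.

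Leaves of 21-day-old japonica rice (Zhonghua11) were profiled on 9 Affymetrix arrays, 3 for each of 3 groups. The seedlings grew in liquid culture and received no stress. The wild type (WT) carried no construct, the overexpression plants (OE) were made with full-length OsHMGB707 cDNA behind the CaMV 35S promoter, and the RNAi plants were made with a fragment of OsHMGB707 in another vector behind a ubiquitin promoter. Each replicate was a pool of seedlings, the labels do not name the transformed line, and no transformed control plant was among the arrays, so that construct, insertion and selection cannot be told apart in a comparison with WT.

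Beta-glucosidases cut glucose from the end of sugar chains or from a non-sugar partner. Plants store hormones, lignin precursors and defence compounds as glucosides, and a beta-glucosidase that meets such a store releases the active compound. Other members trim oligosaccharides of the cell wall, and a few move the glucose to a new acceptor instead of to water. The family is large in rice, and several of its genes stand side by side on the chromosomes.

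OsHMGB707 itself (LOC4336676, chromosome 4), a high mobility group box protein that binds DNA, was examined first. One of its 2 probe sets read 12.39, 12.38 and 12.38 on the WT arrays, 12.25, 12.28 and 12.37 on the arrays labelled OE, and 10.31, 10.43 and 10.03 on the RNAi arrays, on the log2 scale. It fell by 2.13 in RNAi (SE 0.09, limma adjusted p = 3.85e-06), whereas the OE difference of -0.09 (SE 0.09, adjusted p = 0.703) gave no rise, so OE below means the arrays that carry this label. The other probe set was called in no comparison. Where the probes lie relative to the cDNA of the construct, and whether the signal was saturated, was not tested. The mean of 19 photosynthesis probe sets of the leaf overlapped between all groups (11.44 to 11.64), and none of the 19 was called. The mean of 15 root probe sets lay between 6.08 and 6.29. Of them 1, for OsPT11, was called, 0.34 higher in OE than in RNAi (adjusted p = 0.0496). This call was ended by 7 of the 9 omissions of an array (up to 0.142). It read 3.45 to 4.06 over the 9 arrays, under the lower quartile of every array (4.33 or more). Other OsPT11 probe sets differed by -0.13, -0.08 and 0.11 in OE against RNAi and were not called. The mean of 19 inflorescence probe sets was 4.85 to 4.88 in OE against 4.62 to 4.65 in WT and 4.61 to 4.68 in RNAi. The median difference of the list in OE was 0.09 from WT and -0.0027 from RNAi. Of the 19, 3 were called higher and 1 lower in OE against WT, beside 1.25% and 1.69% of all probe sets. In OE against WT the floral MADS-box genes Lhs1 (2.33 higher), MADS2 (0.92 higher) and MADS58 (0.78 higher) rose, and MADS16 (-0.57, named after its value was seen) fell. The MADS2 that rose is LOC4325001, and a separate gene also listed as MADS2 (LOC4343851) differed by 0.01 and was not called. The MADS58 call ended when a single WT array, OE replicate 1 or 3, or replicate 2 of RNAi was omitted (up to 0.16). The part of these floral genes in the BGLU results was not tested.

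Within the family, BGLU3, BGLU5 and BGLU28 were higher and BGLU16 and BGLU12 were lower in OE than in WT. A difference was called at an adjusted p under 0.05 over all 57194 probe sets. In OE against WT the test called 9 of the 39 BGLU probe sets, from 5 of the 27 genes. The share of all probe sets called in this comparison was 2.94%. Of the 9, 6 were higher (beside 1.25% of all) and 3 were lower (beside 1.69% of all). The count was 2 when WT replicate 2 or WT replicate 3 was omitted, 3 when OE replicate 1 was, and 4 when OE replicate 3 was. Calls over all 57194 probe sets fell as well, from 1680 to 579, 527, 664 and 1160 under these omissions in turn. Among probe sets whose mean over the arrays was at or above the median of all such means, 9 of 34 BGLU probe sets were called against 4.79% of all. The median difference of the 39 probe sets was 0.08 on the log2 scale, beside 0.02 over all. In bulk leaf RNA fewer cells of a type and less RNA per cell cannot be told apart. The 3 OE arrays did not overlap the 3 WT arrays for 18 of the 39 probe sets, beside 23.3% of all. Of these, 12 were higher and 6 lower, beside 11.3% and 12% of all probe sets.

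No BGLU probe set was called in RNAi against WT by limma, and 0.479% of all probe sets were. At an unadjusted p under 0.05, 12 of the 39 passed, beside 12.5% of all (4 higher beside 6.72%, and 8 lower beside 5.8%), and the test without moderation called 0 as well. The median difference was -0.15, with 25 of the 39 probe sets below 0, whereas the median over all was 0.0018 and 49.4% of all were below 0. The groups did not overlap for 11 of the 39, beside 16.3% of all.

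The direct comparison of OE with RNAi called 9 of the 39 probe sets, 7 higher and 2 lower in OE, from BGLU3, BGLU5, BGLU14, BGLU28 and BGLU16. The background of this comparison was 6.16%, made up of 3.14% higher and 3.02% lower, and among those with a mean at or above the median the figures were 9 of 34 and 9.71%. The arrays of OE and RNAi did not overlap for 17 of the 39, beside 23.2% of all. In all, 10 probe sets of 6 genes were called in at least 1 comparison and 29 probe sets in none, and 21 genes had no called probe set. The BGLU probe sets also varied more within groups than the array as a whole, with a median SD of 0.13 in WT, 0.14 in OE and 0.15 in RNAi beside 0.08, 0.10 and 0.11 over all probe sets.

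**Figure D1:**
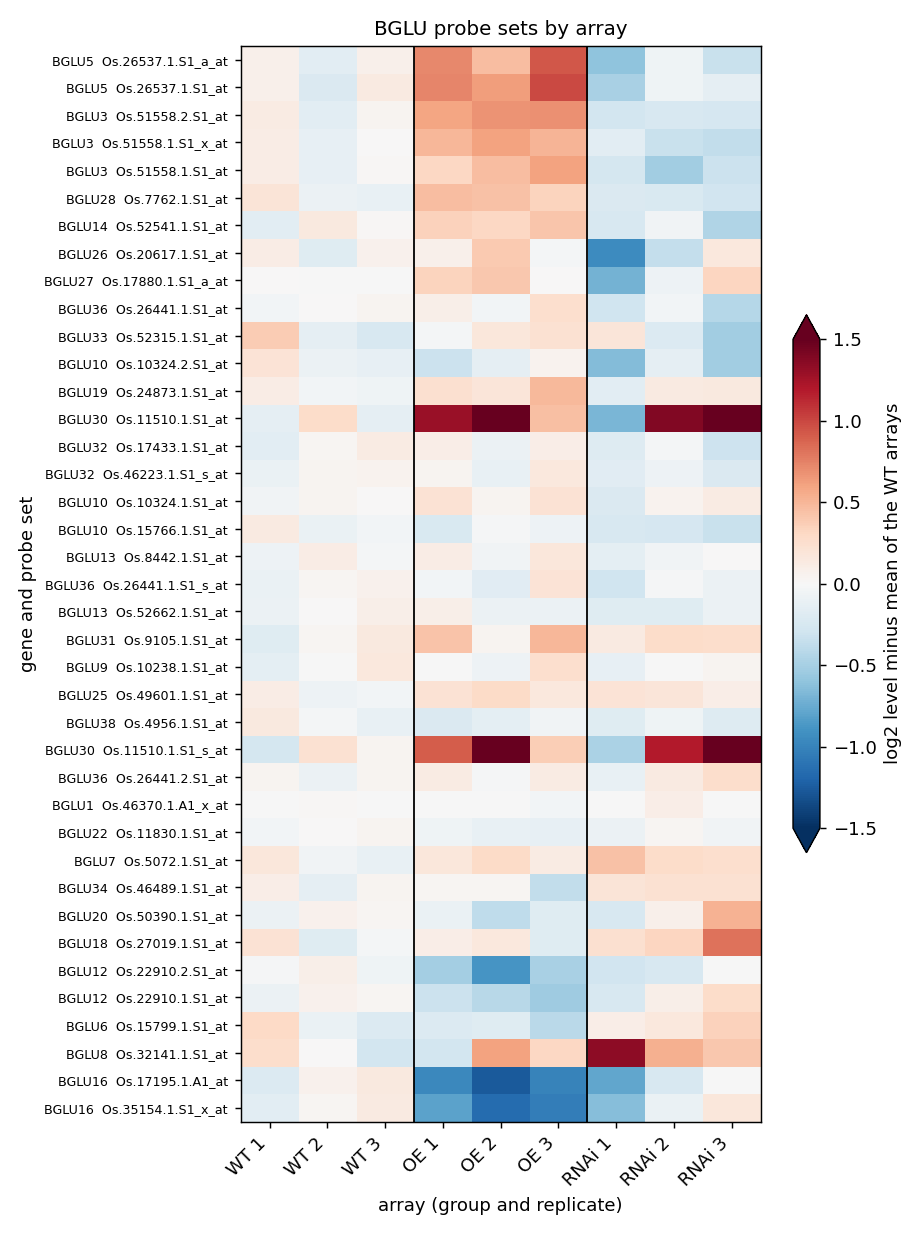
Each row is a BGLU probe set and each column an array, and colour gives the log2 level minus the mean of the 3 WT arrays, cut at 1.5 in both directions. BGLU5, BGLU3, BGLU28 and BGLU14 are red on the 3 OE arrays, BGLU16 is blue there, and BGLU30 changes strongly from array to array.

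**Figure D2:**
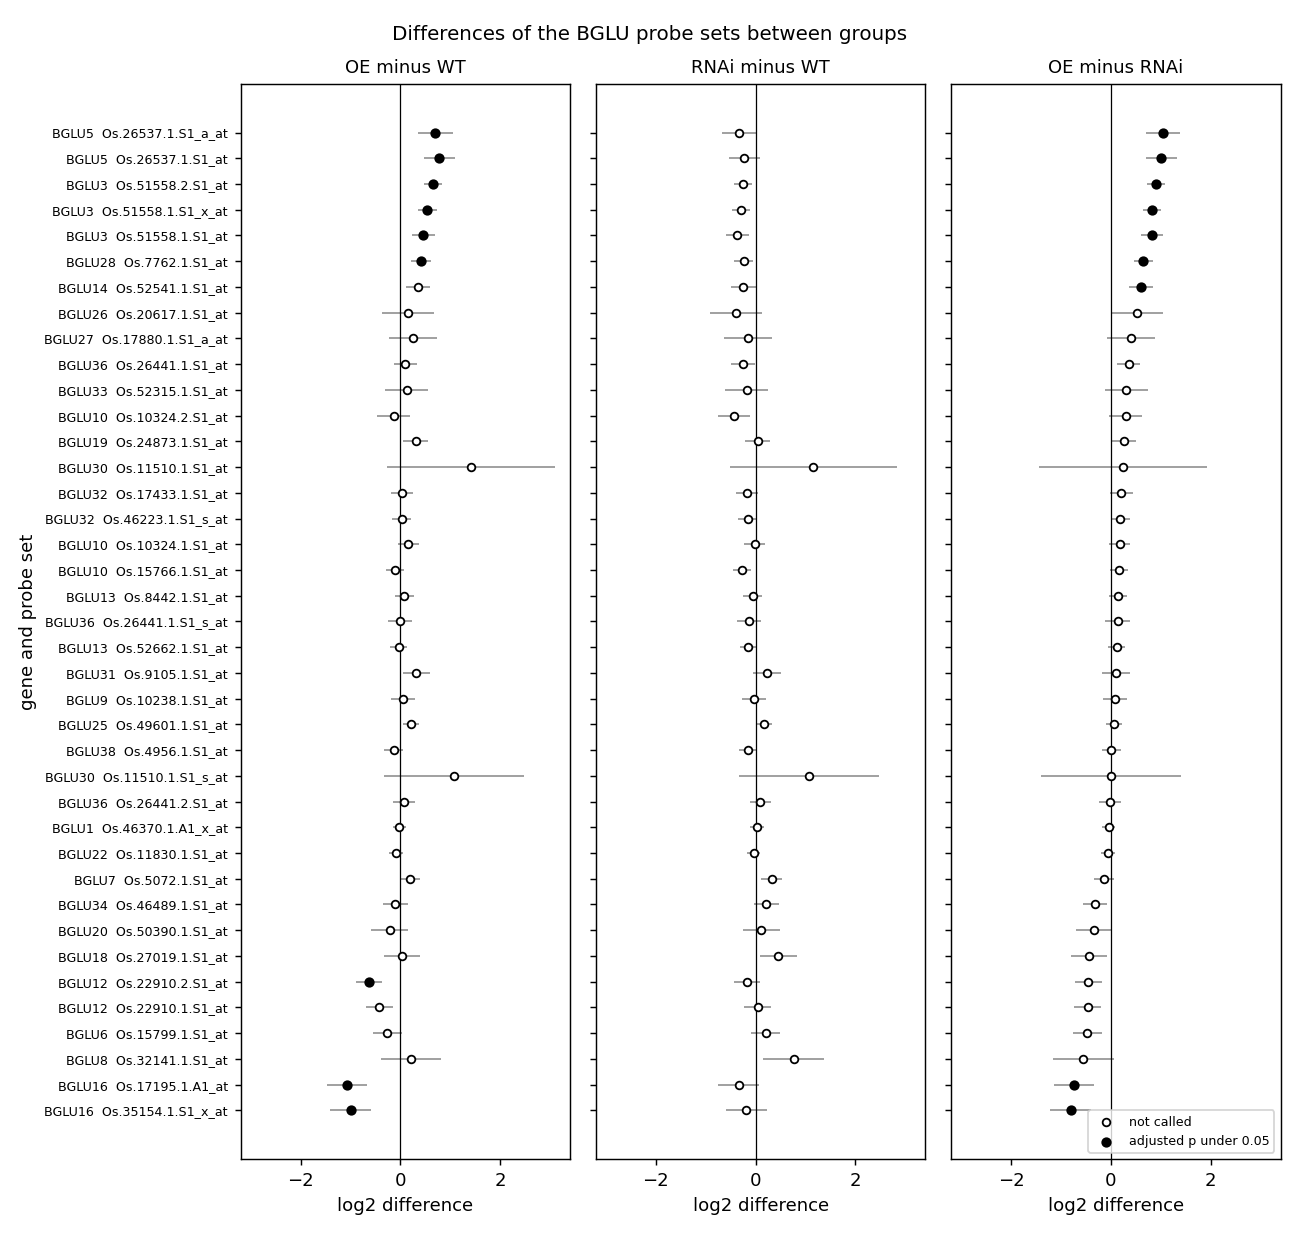
Points are the fitted log2 differences of the 39 BGLU probe sets in the 3 comparisons, bars are 95% confidence intervals from limma for 3 arrays per group, and filled points were called. There are 9 filled points in OE minus WT, 0 in RNAi minus WT and 9 in OE minus RNAi.

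BGLU3 (LOC4327593), on chromosome 1, was measured by 3 probe sets and moved the same way in all of them. One probe set read 9.75, 9.47 and 9.68 in WT, 10.22, 10.30 and 10.32 in OE, and 9.36, 9.39 and 9.38 in RNAi. Every OE array stood above every WT array, and every RNAi array stood below them. The rise in OE was 0.65 (1.57-fold, SE 0.08, 95% interval 0.47 to 0.83, adjusted p = 0.00254). Another, whose name ends in _x_at, read 9.13, 8.90 and 9.03 in WT, 9.52, 9.63 and 9.53 in OE, and 8.86, 8.68 and 8.65 in RNAi, a rise of 0.54 in OE (SE 0.08, adjusted p = 0.00935). This ending says that some of its probes may also bind related transcripts. The last read 6.56, 6.33 and 6.47 in WT, 6.76, 6.92 and 7.05 in OE, and 6.19, 5.93 and 6.13 in RNAi, and rose by 0.46 in OE (SE 0.10, adjusted p = 0.0451). The calls of the first and second probe sets stood without any one array (adjusted p up to 0.0471), whereas that of the last missed the threshold when a single array of WT or OE, or RNAi replicate 3, was omitted (adjusted p up to 0.169). Against WT the RNAi levels differed by -0.26, -0.29 and -0.37, with adjusted p of 0.23, 0.195 and 0.181, which did not pass. OE exceeded RNAi by 0.90 (adjusted p = 0.000275), 0.83 (adjusted p = 0.000589) and 0.83 (adjusted p = 0.00176). Across the 9 arrays the 3 probe sets followed each other (Pearson r 0.953 to 0.979), as a description of signals that share a transcript and a library.

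BGLU28 (LOC4345996), on chromosome 8, had the same order of groups. It read 8.78, 8.50 and 8.47 in WT, 9.05, 9.02 and 8.92 in OE, and 8.37, 8.36 and 8.30 in RNAi. The 3 groups did not overlap, with RNAi lowest and OE highest. It rose by 0.41 in OE (1.33-fold, SE 0.09, adjusted p = 0.0373) and stood 0.65 above RNAi (SE 0.09, adjusted p = 0.00274). RNAi differed from WT by -0.24 (adjusted p = 0.306), which did not pass. Omitting WT replicate 2 or 3, a single OE array or RNAi replicate 2 ended the call against WT (adjusted p up to 0.158), as did a fit of the 2 groups alone (0.0694) and the unmoderated test (0.0993). The call against RNAi was kept without any one array. The order of RNAi below WT below OE without overlap was seen for 4 of the 39 BGLU probe sets, which are those of BGLU3 and BGLU28, and for 1.03% of all probe sets. The opposite order was seen for 0 of the 39 and for 0.65% of all.

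BGLU5 (LOC4326948), also on chromosome 1, had the highest called rise of the family in OE. One probe set read 6.91, 6.63 and 6.98 in WT, 7.57, 7.47 and 7.83 in OE, and 6.36, 6.78 and 6.71 in RNAi. All OE arrays lay above all others, while the WT and RNAi arrays overlapped. The rise over WT was 0.78 (1.72-fold, SE 0.14, 95% interval 0.47 to 1.09, adjusted p = 0.018). The other, with the ending _a_at of probe sets that match several transcripts of a gene, read 7.96, 7.72 and 7.96 in WT, 8.60, 8.34 and 8.82 in OE, and 7.27, 7.81 and 7.55 in RNAi, with a rise of 0.70 (SE 0.15, adjusted p = 0.0413). OE exceeded RNAi by 1.01 (2.01-fold, adjusted p = 0.00321) and 1.04 (2.06-fold, adjusted p = 0.00444). The RNAi differences from WT were -0.23 (adjusted p = 0.549) and -0.34 (adjusted p = 0.405). The first call against WT ended when WT replicate 2 or 3, or one of OE replicates 1 and 3, was omitted (adjusted p up to 0.0773). The second ended with the omission of a single WT array, of OE replicate 1 or 3, or of replicate 3 of RNAi (adjusted p up to 0.159). Both calls against RNAi held without any one array (up to 0.0236).

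BGLU14, BGLU16 and BGLU18 stand close together on chromosome 4 and are related to the enzymes that free monolignols, the building units of lignin, from their glucosides. BGLU18 is known to cut coniferin, the glucoside of coniferyl alcohol. BGLU16 fell in OE, BGLU14 read higher in OE than in both other groups, and BGLU18 differed little between OE and WT.

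BGLU16 (LOC4336389) had the largest called change of the family against WT. One probe set read 9.78, 10.05 and 10.13 in WT, 9.02, 8.73 and 8.98 in OE, and 9.21, 9.75 and 9.98 in RNAi. The OE arrays were below all WT and RNAi arrays, and RNAi replicate 1 was the lowest of its group. The level fell by 1.08 in OE against WT (2.11-fold lower, SE 0.18, 95% interval -1.48 to -0.68, adjusted p = 0.0139). The other, whose ending _x_at marks probes that may also bind related transcripts, read 10.46, 10.65 and 10.76 in WT, 9.82, 9.47 and 9.59 in OE, and 9.98, 10.52 and 10.80 in RNAi, and fell by 0.99 (SE 0.18, adjusted p = 0.0213). Against RNAi the OE differences were -0.74 (adjusted p = 0.0424) and -0.80 (adjusted p = 0.0326). Omitting WT replicate 2 or 3 ended both calls against WT (adjusted p up to 0.0727 and 0.102), and omitting a single OE array also ended the second. The first call against RNAi held only when RNAi replicate 1 was omitted, and each other omission ended it (adjusted p up to 0.132). The second ended when replicate 2 or 3 of WT or of RNAi, or a single OE array, was omitted (adjusted p up to 0.108). RNAi differed from WT by -0.34 (adjusted p = 0.474) and -0.19 (adjusted p = 0.722).

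BGLU14 read 6.26, 6.56 and 6.43 in WT, 6.76, 6.72 and 6.84 in OE, and 6.18, 6.36 and 5.96 in RNAi. The OE arrays lay above the rest, and WT and RNAi overlapped. OE exceeded RNAi by 0.60 (1.52-fold, SE 0.11, adjusted p = 0.012), a call kept without any one array and missed by the unmoderated test (adjusted p = 0.0656). The OE difference from WT was 0.36 (adjusted p = 0.132). BGLU18 read 7.01, 6.61 and 6.76 in WT, 6.90, 6.95 and 6.61 in OE, and 7.04, 7.12 and 7.61 in RNAi. Its RNAi arrays lay above the WT arrays by 0.46 (adjusted p = 0.294), and the OE difference was 0.03 with an interval of -0.34 to 0.39.

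Of the members known to act on hormone conjugates, BGLU12 was lower in OE. The enzyme cuts tuberonic acid glucoside, a relative of jasmonate, and short glucose chains. One probe set of BGLU12 (LOC4336145) read 7.02, 7.11 and 6.96 in WT, 6.52, 6.15 and 6.55 in OE, and 6.74, 6.79 and 7.03 in RNAi. The 3 OE arrays were lower than all others. It fell by 0.62 in OE (1.54-fold lower, SE 0.12, adjusted p = 0.0221), a call that ended when a single WT array or OE replicate 1 was omitted (adjusted p up to 0.101). The other read 11.66, 11.81 and 11.77 in WT, 11.42, 11.33 and 11.21 in OE, and 11.51, 11.83 and 12.02 in RNAi. Here too the OE arrays were the lowest, but the differences of -0.42 from WT (adjusted p = 0.103) and -0.47 from RNAi (adjusted p = 0.0502) did not pass. Without RNAi replicate 1 this probe set was called in both comparisons (adjusted p = 0.031 and 0.0077).

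BGLU13, the neighbour of BGLU12, acts on tuberonic acid glucoside and on gibberellin glucose ester. One of its probe sets read 10.30, 10.49 and 10.35 in WT, 10.49, 10.33 and 10.55 in OE, and 10.24, 10.33 and 10.39 in RNAi. The groups overlapped, and the OE difference from WT was 0.08 with an interval of -0.11 to 0.26. BGLU6, an enzyme that accepts hydrophobic glycosides and the glucose ester of abscisic acid, read 8.77, 8.37 and 8.27 in WT, 8.27, 8.29 and 8.06 in OE, and 8.57, 8.63 and 8.82 in RNAi. Its OE arrays were all below its RNAi arrays, and this difference of -0.47 (SE 0.13, adjusted p = 0.0658) did not pass, though it did among probe sets with a mean at or above the median (adjusted p = 0.0495).

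**Figure D3:**
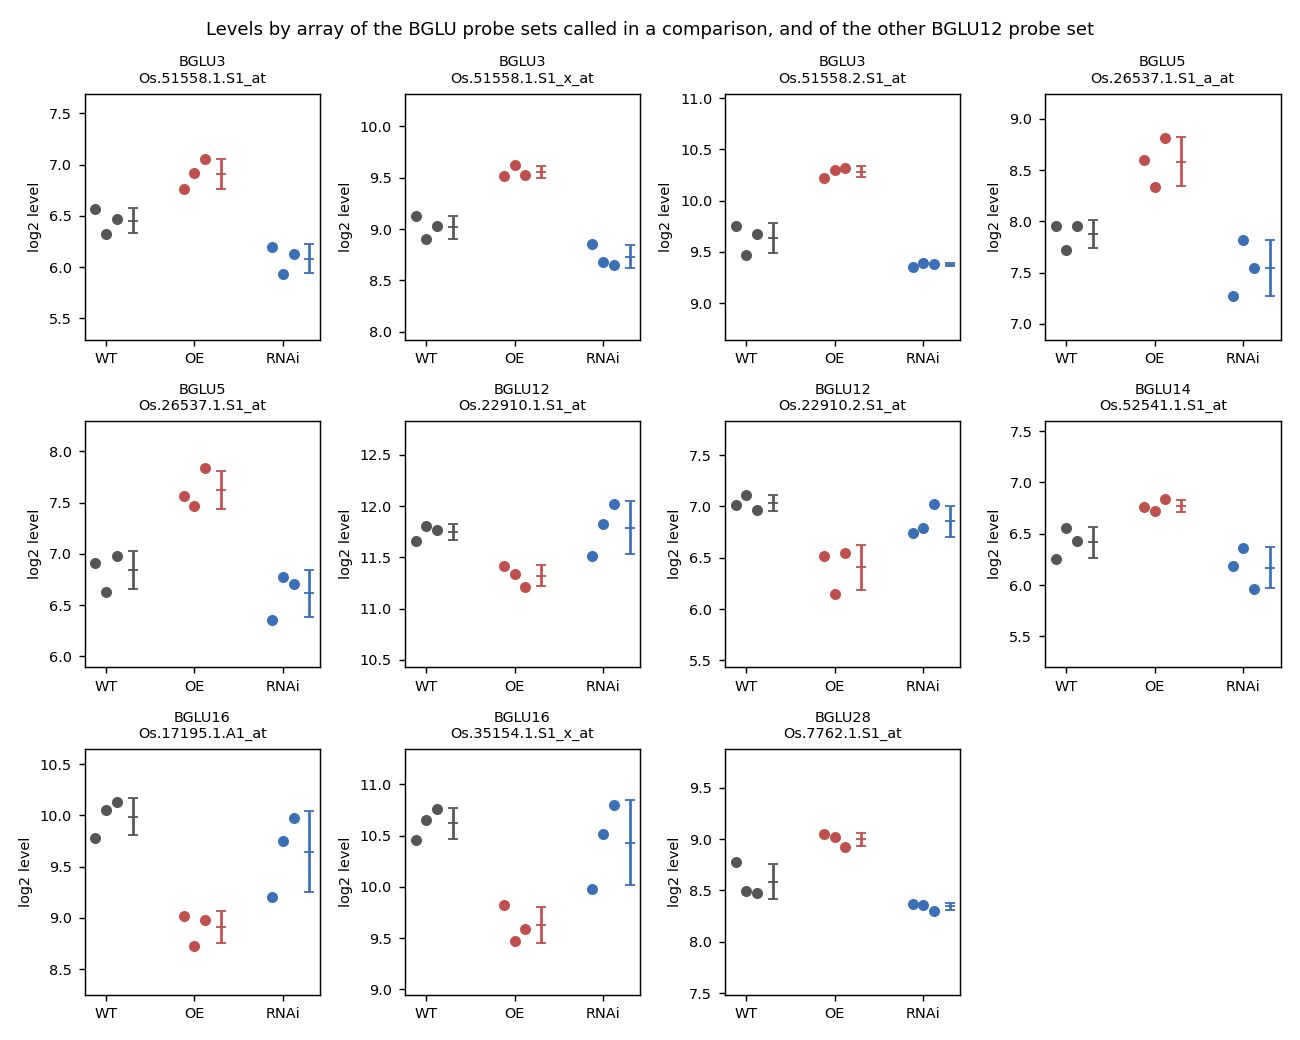
Log2 level on each array for the 10 BGLU probe sets called in a comparison and for the other BGLU12 probe set, with the mean and SD of 3 arrays beside the points and the same span of 2.4 log2 units on every vertical axis. The OE points lie above the WT points for BGLU3, BGLU5, BGLU14 and BGLU28 and below them for BGLU12 and BGLU16.

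BGLU7, BGLU8 and BGLU26 were not called in any comparison. BGLU7, which cuts cellulose-derived oligosaccharides and mannosides, read 11.94, 11.71 and 11.66 in WT, 11.93, 12.05 and 11.89 in OE, and 12.21, 12.04 and 12.02 in RNAi. All RNAi arrays were above all WT arrays, and the difference of 0.32 (adjusted p = 0.196) did not pass. BGLU8, the next gene on chromosome 3, read 5.77, 5.51 and 5.23 in WT, 5.23, 6.11 and 5.81 in OE, and 6.84, 6.04 and 5.92 in RNAi. Its RNAi difference from WT was 0.76 (SE 0.27, adjusted p = 0.299), with RNAi replicate 1 highest. BGLU26, a beta-mannosidase, read 9.37, 9.07 and 9.32 in WT, 9.33, 9.64 and 9.23 in OE, and 8.30, 8.89 and 9.41 in RNAi, and its groups overlapped.

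BGLU30 (LOC4347441), on chromosome 9, stood apart by its spread between replicates. One probe set read 5.58, 5.98 and 5.58 in WT, 7.01, 8.20 and 6.16 in OE, and 5.03, 7.11 and 8.48 in RNAi. All OE arrays were above all WT arrays, whereas the RNAi arrays reached from below the WT arrays to above the OE arrays. Its SD was 0.23 for WT, 1.02 for OE and 1.74 for RNAi, and 9 of the 57194 probe sets had a larger SD in RNAi. The other, whose ending _s_at marks a match to several transcripts, read 5.75, 6.24 and 6.06 in WT, 6.93, 7.95 and 6.39 in OE, and 5.55, 7.20 and 8.50 in RNAi, and 15 probe sets had an RNAi SD above its 1.48. The pair followed each other over the 9 arrays (r = 0.992, a description of signals from shared libraries and possibly shared transcripts). The OE differences from WT were 1.41 (SE 0.75, adjusted p = 0.387) and 1.07 (SE 0.63, adjusted p = 0.434), and those of RNAi were 1.16 (adjusted p = 0.574) and 1.07 (adjusted p = 0.529). None of these passed. RNAi replicate 1, lowest here, was the lowest RNAi array for 25 of the 39 BGLU probe sets and for 39.1% of all probe sets.

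**Figure D4:**
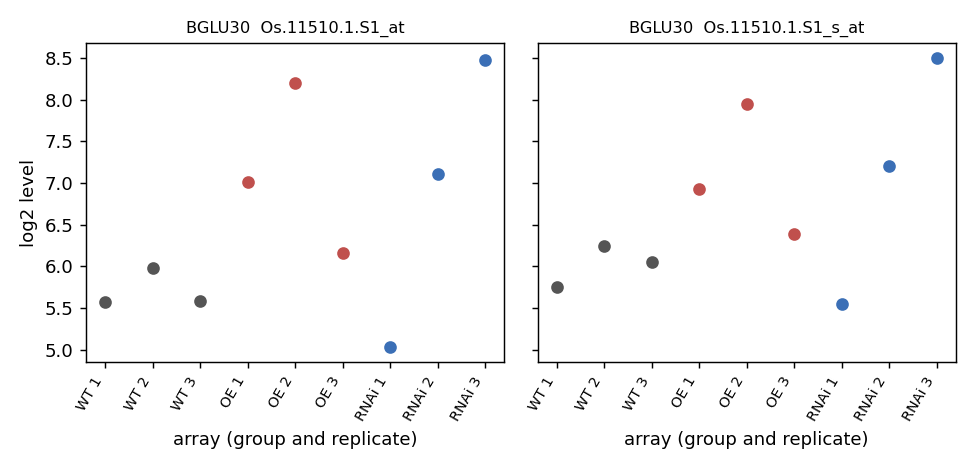
Log2 level of both BGLU30 probe sets on each of the 9 arrays, grey for WT, red for OE and blue for RNAi. The WT points span 5.58 to 5.98 in the left panel, while the RNAi points span 5.03 to 8.48.

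The other members showed no called difference between groups. BGLU31, a vacuolar enzyme that transfers glucose between acceptors, read 10.01, 10.22 and 10.34 in WT, 10.62, 10.23 and 10.69 in OE, and 10.33, 10.47 and 10.46 in RNAi, with an OE difference of 0.32 (adjusted p = 0.228). BGLU36, the rice counterpart of the Arabidopsis galactolipid-remodelling enzyme SFR2, had 3 probe sets whose OE differences from WT were 0.10, -0.00047 and 0.08. The first of them read 7.15, 7.41 and 7.03 in RNAi and 7.41, 7.46 and 7.49 in WT, and its difference of -0.26 did not pass (adjusted p = 0.361). BGLU10, next to BGLU12, also had 3 probe sets, whose RNAi differences from WT were -0.43, -0.28 and -0.02. The first and second followed each other over the arrays (r = 0.827), and the third did not follow them (r = 0.265 and -0.13).

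Levels of different probe sets depend on their probes, so genes are not ranked by them. BGLU22 read 12.11, 12.17 and 12.19 in WT, 12.10, 12.05 and 12.04 in OE, and 12.06, 12.18 and 12.11 in RNAi, with an OE difference of -0.10 (interval -0.23 to 0.04). BGLU38, known for a part in building the pollen wall, read 3.67, 3.49 and 3.42 in WT, 3.31, 3.38 and 3.47 in OE, and 3.34, 3.46 and 3.33 in RNAi, and was the 1 member below the lower quartile of every array, where levels are compressed. BGLU1 stayed between 4.59 and 4.73 on all 9 arrays, and its intervals reached from -0.15 to 0.11 in OE and from -0.11 to 0.16 in RNAi against WT. The second BGLU13 probe set read between 4.91 and 5.18 on all 9 arrays, with overlapping groups. In all, 32 of the 39 probe sets, from 22 genes, read above the array median on every array. Outside the genes with a called probe set and the probe sets of largest difference, 25 remained, those at the ends of the level range among them. They differed by -0.26 to 0.32 in OE against WT, by -0.43 to 0.46 in RNAi against WT, and by -0.47 to 0.53 in OE against RNAi.

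Some members with a called change had measured neighbours that were not called. BGLU27 and BGLU28 are adjacent on chromosome 8. BGLU27 read 10.50, 10.49 and 10.48 in WT, 10.83, 10.90 and 10.49 in OE, and 9.79, 10.41 and 10.81 in RNAi, and its groups overlapped in every comparison (OE against WT 0.25, interval -0.23 to 0.73). On chromosome 4, BGLU12 was lower in OE by one called probe set, while BGLU9, BGLU10 and BGLU13 of the same stretch were not called. On chromosome 5, BGLU19 (0.31), BGLU20 (-0.22) and BGLU22 (-0.10) differed from WT in OE by these amounts and were not called. On chromosome 9, BGLU31 (0.32), BGLU32 (0.03) and BGLU33 (0.12) were not called either. Differences between neighbours were not tested.

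**Figure D5:**
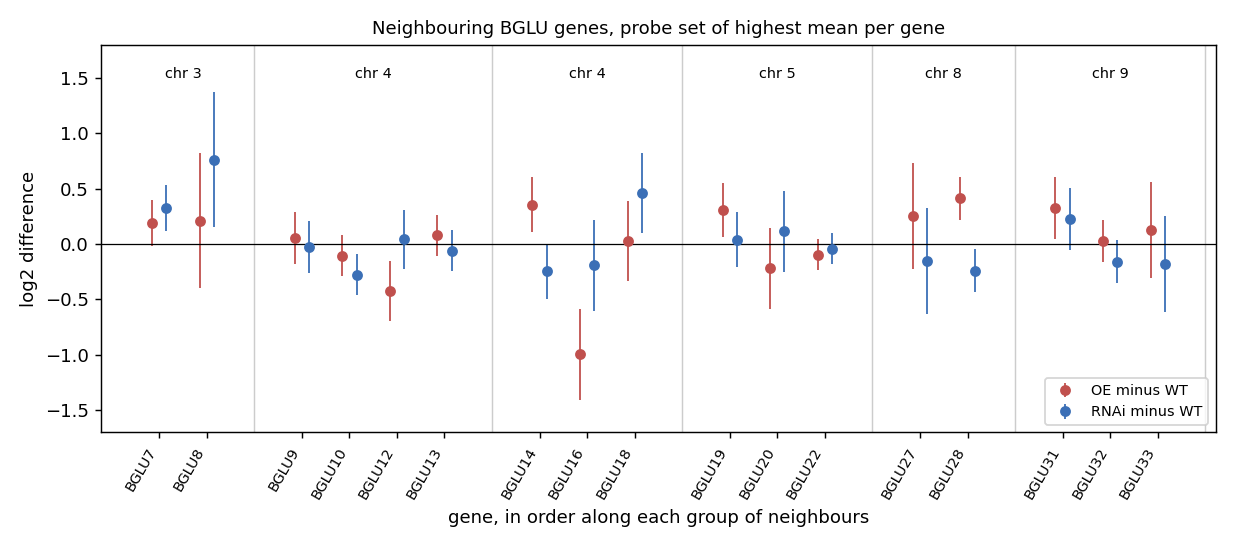
Log2 differences from WT in OE (red) and RNAi (blue), with 95% intervals, for BGLU genes that lie within 10 genes of each other, using the probe set of highest mean per gene. The BGLU16 interval for OE lies wholly below 0. That of its neighbour BGLU14, which was not called against WT, lies above 0, and that of BGLU18 spans 0. The intervals are not adjusted for the number of probe sets.

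The pathways that meet these enzymes were read from lists of gene symbols, and none of their genes was called in RNAi against WT. Of 26 monolignol and phenylpropanoid probe sets, 0 rose and 2 fell in OE against WT, beside backgrounds of 1.25% (higher) and 1.69% (lower). The median of the list was -0.20 beside 0.02 over all. CAD8A, a cinnamyl alcohol dehydrogenase of the last step to monolignols, read 9.14, 9.25 and 9.28 in WT, 8.54, 8.61 and 8.35 in OE, and 9.09, 9.27 and 9.55 in RNAi. Its OE arrays were the lowest, and it fell by 0.73 (adjusted p = 0.0113), a call that ended when WT replicate 2 or 3 was omitted (up to 0.061). 4CL3, a coumarate ligase, fell by 0.41 (adjusted p = 0.0405), and this call ended with the omission of a single array of WT or OE, or of replicate 2 of RNAi (up to 0.158). In OE against RNAi, 5 of the 26 fell and 1 rose, beside 3.02% lower and 3.14% higher over all probe sets. CAD8C fell by 1.06 (adjusted p = 0.0231), CAD8A by 0.81 (adjusted p = 0.00392) and PAL06, a phenylalanine ammonia-lyase, by 0.72 (adjusted p = 0.0306), and the others, named after their values were seen, were 4CL3 and HCT3 (lower) and 4CL4 (higher). Another probe set of PAL06 (-0.54, adjusted p = 0.0668) and another of HCT3 (-0.37, adjusted p = 0.0626) did not pass. The other probe set of CAD8C and that of 4CL4 were not called either. The CAD8C call ended when replicate 1 or 3 of OE or replicate 2 of RNAi was omitted (up to 0.0888), and that of PAL06 when WT replicate 3, a single OE array or replicate 2 of RNAi was (up to 0.101).

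Among 21 jasmonate probe sets, 2 fell in OE against both other groups, where 1.69% (against WT) and 3.02% (against RNAi) of all probe sets were called lower. AOS (LOC4332121), an allene oxide synthase, read 10.88, 11.07 and 11.13 in WT, 10.31, 10.28 and 10.02 in OE, and 10.78, 10.77 and 10.86 in RNAi. It fell by 0.83 against WT (adjusted p = 0.00193) and by 0.60 against RNAi (adjusted p = 0.00624), both kept without any one array. A separate gene also listed as AOS (LOC4334233), AOS3 and AOS4 were not called. OPR7, an oxophytodienoate reductase, fell by 0.68 against WT (adjusted p = 0.0343) and by 0.55 against RNAi (adjusted p = 0.04999). Its call against WT ended when a single WT array, OE replicate 1 or replicate 2 of RNAi was omitted (up to 0.136), and its call against RNAi when any array but OE replicate 3 was (up to 0.127).

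Of 4 abscisic acid probe sets, ABA8OX2, a hydroxylase that inactivates the hormone, rose by 0.59 in OE against WT (adjusted p = 0.0137, beside 1.25% of all probe sets called higher), a call that ended when replicate 2 or 3 of WT or replicate 1 of OE was omitted (up to 0.0674). Against RNAi it was higher by 0.68 (adjusted p = 0.00425), and ABA8OX1 was higher by 1.07 (adjusted p = 0.00926), both kept without any one array, beside 3.14% of all called higher. ABA8OX1 was not called in OE against WT. In RNAi against WT the 4 probe sets differed by -0.79 to -0.01, and none was called. The list of UDP-glycosyltransferases, which make glucosides, matched only OsSGT1, with an OE difference from WT of -0.13 (adjusted p = 0.383). None of 15 probe sets of other glucan and cellulose hydrolases was called in any comparison, and GLU1, at 0.47 in OE against WT (adjusted p = 0.0949), was called when WT replicate 1 was omitted (0.0363).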

How the data were processed

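The authors deposited log2 values, 1 per probe set and array, attributed in the submitters' notes to RMA (background correction, quantile normalization and probe summary). The RMA version was not given in the sources used here. This step draws all arrays towards 1 distribution and compresses low levels. Of 57381 probe sets, 187 that serve as controls or reporters were omitted. Names came from the platform annotation, joined by gene number to a reference table of assembly ASM3414082v1, and no coordinates are given because the builds were not matched.

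A mean per group was fitted with limma 3.58.1 in R 4.3.3 to all 9 arrays (6 residual and 3.78 prior degrees of freedom), two-sided, with Benjamini-Hochberg adjustment over 57194 probe sets. Adjusted p-values are from this fit unless the omission of an array or another alternative is named with them. The code was tested on simulated data. P-values measure the spread between 3 seedling pools per group, whose number limits the precision. The comparisons with WT share the WT arrays. Members and lists were chosen with earlier results of these data known. Named with their arrays' values were BGLU genes with a called probe set, those of largest difference or at the ends of the level range, and some chosen after their values were seen. Up to 3 probe sets of each list were named per comparison, and a few others after their values were seen. The starch and sucrose list also matched 6 probe sets of MADS-box genes by a shared symbol. Alternatives were other filters, centring, variance models, 1 probe set per gene, a replicate block and the omission of each array.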

Additional observations from a re-analysis of the deposited data

Results flagged for a closer look

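For 9 BGLU probe sets the difference from WT in OE and the difference from WT in RNAi were not the same by the test of OE against RNAi in limma. The gap between these differences was 1.04 and 1.01 for BGLU5, 0.90, 0.83 and 0.83 for BGLU3, 0.65 for BGLU28 and 0.60 for BGLU14, all higher in OE. It was -0.80 and -0.74 for BGLU16, lower in OE.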

How the results depend on the processing

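The count of BGLU probe sets called in OE against WT, 9 in the report, was 2 with the unmoderated test, 4 with 1 probe set per gene, 6 with the replicate block, and 2 to 10 when 1 array was left out. Over all 57194 probe sets 1680 were called in the main fit. This became 731 with the unmoderated test, 937 with the replicate block and 527 to 1939 when 1 array was left out. The block ended the OE against WT calls of BGLU28 (adjusted p = 0.0508), of the BGLU3 probe set that read 6.56, 6.33 and 6.47 in WT (0.0737) and of the BGLU5 probe set ending in _a_at (0.081). In OE against RNAi the 9 (7 higher, 2 lower) became 5 with 1 probe set per gene, 6 with the unmoderated test and 7 with the 2 groups alone (0 lower in both), 12 (5 lower) among probe sets with a mean at or above the median, where both BGLU12 probe sets (adjusted p = 0.0372 and 0.039) and BGLU6 (0.0495) were gained, 9 with the replicate block, and 7 to 10 without 1 array. Over all probe sets in OE against RNAi, 3521 were called in the main fit. There were 1623 with the unmoderated test, 1805 with the 2 groups alone and 2455 with the replicate block. The fit of probe sets with a mean at or above the median called 3756 of 28597. Without 1 array 1693 to 4141 of all probe sets were called. The unmoderated test left only 2 BGLU3 probe sets called in OE against WT, and both BGLU16 calls in OE against RNAi ended with it (0.15 and 0.133) and with the 2 groups alone (0.0975 and 0.0882). In RNAi against WT the count was 0 under every alternative that was run, the replicate block included. The replicate numbers were not treated as pairs, since 2 of 9 same-numbered pairs correlated above 0.1 (range -0.33 to 0.12) and 0 of 9 arrays stood closest to an array of its own number. The direction turned only for differences that were not called. Omitting 1 array gave -0.075 to 0.18 for RNAi against WT in the BGLU12 probe set that read 11.66, 11.81 and 11.77 in WT (-0.0022 without WT replicate 1, -0.075 without RNAi replicate 3). It gave -0.37 to 0.035 for RNAi against WT in the BGLU16 probe set ending in _x_at (0.035 without RNAi replicate 1). For BGLU30 in OE against RNAi it gave -0.67 to 1.05 and, for the probe set ending in _s_at, -0.76 to 0.71 (-0.29 and -0.43 without OE replicate 2, -0.67 and -0.76 without RNAi replicate 1), and the latter was -0.0017 with each array centred on its median. Among the 1346 recomputed values of named probe sets, 1177 kept direction and side of the threshold, 151 were no longer called, 10 became called and 8 turned direction. OsCel9E was also called in OE against RNAi with the replicate block (0.0359). The alternatives for OsHMGB707 and for the other lists were chosen after seeing the data. Taking members by current symbol gave no value, because 0 members carry a BGLU number as current symbol. Low levels, such as those of BGLU38 and BGLU1, are compressed, so small differences there may be understated.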

Other observations

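Of 27 starch and sucrose probe sets, 2 were called, both lower in OE than in RNAi, a comparison in which 6.16% of all probe sets were called and 3.02% were lower. CIN2, a cell wall invertase, read 3.81, 3.77 and 3.59 in WT, 3.58, 3.81 and 3.54 in OE, and 5.24, 4.14 and 4.44 in RNAi. Its WT and OE levels and RNAi replicate 2 lay under the lower quartile of every array (4.33 or more), where levels are compressed. The OE difference of CIN2 from RNAi was -0.96 (adjusted p = 0.0372), a call that ended when a single array of WT or OE, or replicate 3 of RNAi, was omitted (up to 0.119). One probe set of OsSUS6, a sucrose synthase, read 7.09, 6.40 and 6.52 in WT, 6.23, 6.61 and 6.36 in OE, and 7.57, 7.41 and 7.01 in RNAi. Its difference was -0.93 (adjusted p = 0.0226), a call that ended when replicate 1 or 3 of OE, or replicate 1 or 2 of RNAi, was omitted (up to 0.0914). The other OsSUS6 probe set was not called. OsCel9E, a cellulase of another glycosyl hydrolase family, read 6.45, 5.19 and 4.72 in WT, 5.13, 5.74 and 4.97 in OE, and 7.56, 6.59 and 6.37 in RNAi. Its OE difference from RNAi was -1.56 (adjusted p = 0.0671), which did not pass with all arrays and was called when WT replicate 1 was omitted (0.0264).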
